A study of Mus musculus with 6 samples.

Results

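The snoRNA host lncRNAs are long noncoding transcripts that carry small nucleolar RNAs (snoRNAs) inside their genes. The 10 genes Snhg1, Snhg3, Snhg5, Snhg6, Snhg8, Snhg12, Snhg15, Snhg20, Gas5 and Zfas1 were chosen by name, not by their values, although earlier results of these data were known. They were looked up in RNA-seq of mouse dermal fibroblasts. A table of all genes held 8 of them among 41126 genes, and all 8 were among the 15462 genes with enough fragments to be tested. A second table, of lncRNAs alone, held 7 of them among 5385 genes, and all 7 were among its 1389 tested genes. Zfas1 was found in the all-gene table only. Rows were looked up by GENCODE M21 identifier, by which Snhg1 and Snhg8 were found in neither table; they were not analysed here, although a snoRNA gene inside each of them did have values.

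The cultures were primary dermal fibroblasts of CD1, C57Bl6 background from the ventral trunk skin of mice at postnatal day 4. The 3 control cultures received Adenovirus-GFP and are labelled +/+, whereas the 3 GOF (gain of function) cultures received Adenovirus-Cre and are labelled Ctnnb1 Δex3/+, an allele from which Cre removes an exon so that the β-catenin protein escapes degradation. In the paper's account the controls carry that allele too, and the treatment text of the labels gives Adenovirus-Cre at 366 to 500 MOI for 6 hours for every culture. By the paper, RNA was taken days after infection, not at the end of those 6 hours. An effect of the virus and one of the allele cannot be told apart in these groups. Cells of each animal were grown separately, and there were 4 labelled animals. Animal 9852 supplied Control replicate 0 together with GOF replicate 2, and animal 9845 supplied Control replicate 2 together with GOF replicate 0. The whole transcript of Ctnnb1, the targeted gene, did not pass the test (log2 fold change -0.05, edgeR adjusted p = 0.844), and the deleted exon was not read separately. Axin2, a feedback gene induced by β-catenin, had 0.136 to 0.177 FPKM in controls and 14.4 to 19.2 FPKM in GOF cultures.

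A snoRNA host gene is transcribed by RNA polymerase II and spliced, and most snoRNAs are cut out of its introns. Box C/D snoRNAs guide 2′-O-methylation and box H/ACA snoRNAs guide pseudouridylation, mainly of ribosomal RNA, and each works in a particle with its own core proteins. The spliced exons of several hosts, Gas5 first among them, begin with a run of pyrimidines like the messenger RNAs of ribosomal proteins and are removed in the cytoplasm by nonsense-mediated decay, so the amount of a host need not follow the amount of its snoRNAs. Gas5 was found as a transcript that accumulates in growth-arrested fibroblasts.

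Windows of 60 bases around the annotated start show how the hosts at the centre of the results begin. They reach from 40 bases before the start to 20 bases from it, and were taken from the RefSeq promoters of GRCm38.p6, which matched 9 of the 10 genes and gave Gas5 a pair of starts. Capitals mark a tract of at least 5 pyrimidines opening with C whose first base lies within 10 bases of the start. Snhg12 is shown because its tract spans the start, and Zfas1 because it has none in this window.
Gas5, first start, chr1:161034561-161034620, plus strand: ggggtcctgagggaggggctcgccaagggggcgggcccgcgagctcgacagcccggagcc
Gas5, second start, chr1:161035126-161035185, plus strand: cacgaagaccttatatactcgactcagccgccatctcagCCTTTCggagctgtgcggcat
Snhg5, chr9:88522878-88522937, minus strand: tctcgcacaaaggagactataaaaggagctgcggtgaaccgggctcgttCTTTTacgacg
Zfas1, chr2:167062894-167062953, plus strand: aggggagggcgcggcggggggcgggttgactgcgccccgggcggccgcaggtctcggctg
Snhg12, chr4:132308638-132308697, plus strand: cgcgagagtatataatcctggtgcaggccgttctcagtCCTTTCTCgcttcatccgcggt
Such a tract stood at 5 of the 10 starts of the members, against 30.7% of 32851 promoters. It began 1 base before the second start of Gas5 and 9 bases after that of Snhg5. On either strand of the whole promoter entry, the TATA box letters TATAAA were in 4 of 10 (13.6% of all promoters), the Tcf/Lef letters CTTTG followed by 2 bases that are each A or T in 3 of 10 (16.9%) and the E-box CACGTG that Myc binds in 1 of 10 (7.15%). The Tcf/Lef letters were in the entries of Snhg3, Snhg8 and Snhg12, and in neither entry of Gas5. These are matches of letters and were not tested as sites.

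Gas5 was by far the most abundant of the 8 members in the all-gene table. FPKM is the number of fragments scaled by transcript length and sequencing depth, so it allows levels of different genes to be set side by side. In controls of the all-gene table the order of the mean levels was Gas5, Zfas1, Snhg6, Snhg12, Snhg5, Snhg15, Snhg3 and Snhg20, from 513 ± 88.4 FPKM for Gas5 to 6.06 ± 0.786 FPKM for Snhg20 (SD, n = 3). The mean level of Gas5 in controls was above that of 98.9% of the tested genes, and that of Snhg20 above 49.8%. The low place of Snhg3 is that of this table, where it had 64.1 to 93.1 fragments per library. In the lncRNA table it had 961 to 1704, whereas Snhg5 had 693 to 1370 in both tables. Levels are not ordered in the lncRNA table, whose FPKM is on another scale and did not follow the fragments of every host. Neighbours in the all-gene order whose libraries overlapped were Zfas1 with Snhg6, Snhg6 with Snhg12, and Snhg3 with Snhg20. In GOF cultures Gas5 was again first and Zfas1 second. Snhg12 then stood before Snhg6 and Snhg15 before Snhg5, and the libraries of both pairs overlapped, as did those of Zfas1 with Snhg12 and of Snhg3 with Snhg20. After TMM normalization, Gas5 alone supplied 56.9% to 63.0% of the summed CPM (fragments scaled to a common library size) of the 8 genes, depending on the library. That sum was 663, 488 and 462 CPM in Control replicates 0, 1 and 2 and 307, 321 and 459 CPM in GOF replicates 0, 1 and 2.

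The main comparison asked how the hosts differ between GOF and control fibroblasts. Gas5 and Snhg5 were lower in GOF cultures, by a log2 fold change of -0.64 and -0.72, and no host was higher. The test was edgeR's quasi-likelihood test over all 15462 genes, with a Benjamini-Hochberg adjusted p under 0.05 as the threshold. Thus 2 of 8 members were lower past the test, where 10.2% of all tested genes were, and 0 of 8 were higher, where 11.1% were. An unadjusted p under 0.05 in edgeR was reached by 3 members. The share of all tested genes that reached it was not counted, so such counts, here and below, show neither an excess nor a lack. DESeq2 called 2 members lower, again Gas5 and Snhg5, where it called 12.8% of all genes lower. No member had a fitted difference of more than a factor of 2. The fitted log2 fold change was below 0 for 6 of 8 members, against 51.5% of all genes, and its median was -0.43 over the members and -0.02 over all genes. In a bulk culture, fewer cells that hold an RNA and less of that RNA per cell cannot be told apart.

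**Figure D1:**
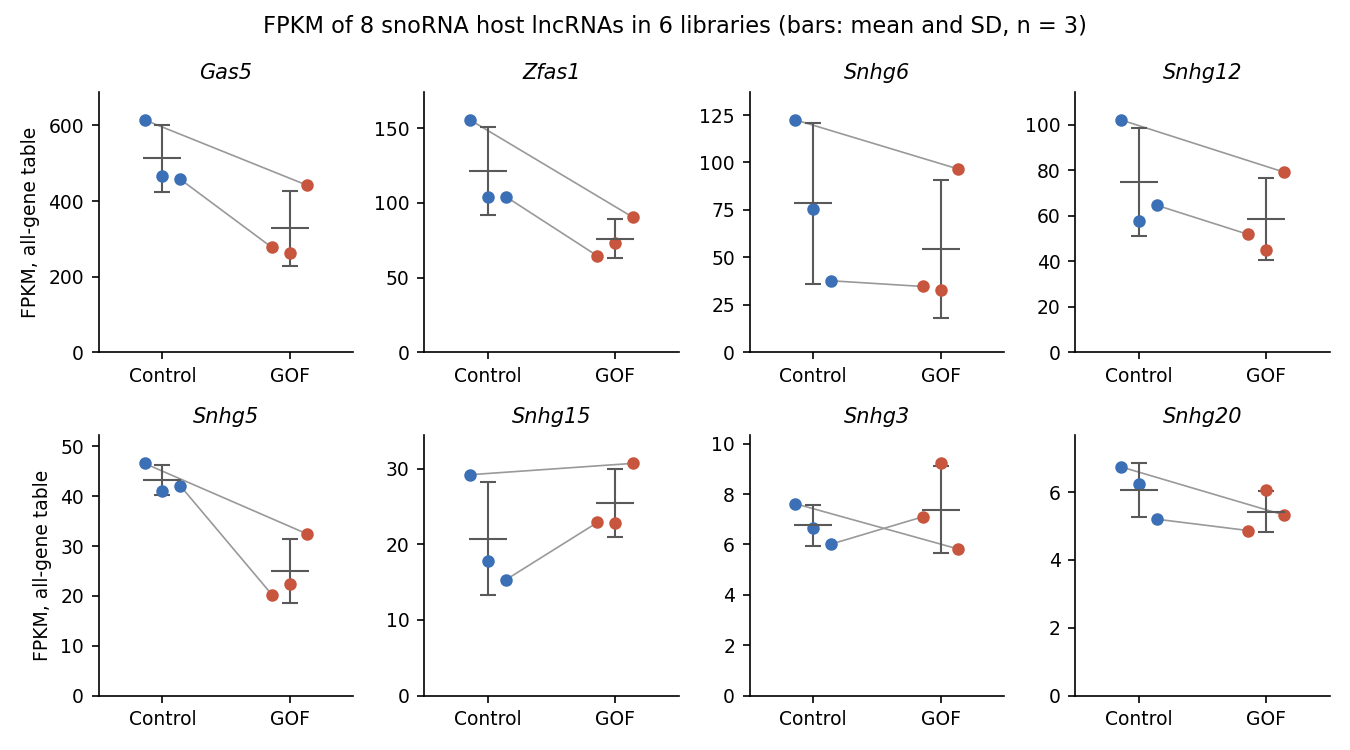
FPKM of each of the 8 host lncRNAs in the all-gene table, for control (blue) and GOF (red) cultures, each panel with its own linear axis from 0. Points are libraries in the order of replicates 0, 1 and 2, horizontal bars with whiskers are the mean and SD (n = 3), and grey lines join the cultures of 1 animal. The groups of Gas5, Zfas1 and Snhg5 do not overlap, and in most panels the line of animal 9852 lies above that of animal 9845.

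Gas5 lies on chromosome 1 from 161034422 to 161038539 on the plus strand. With Snord80 counted under a pair of overlapping identifiers, it holds 10 annotated snoRNA genes, more than any other member. It had 615, 466 and 458 FPKM in Control replicates 0, 1 and 2. In GOF replicates 0, 1 and 2 it had 277, 263 and 441 FPKM. Every GOF library was below every control library, but GOF replicate 2 was close to the lowest control. The means were 513 ± 88.4 and 327 ± 98.9 FPKM (SD, n = 3; two-sided exact permutation p = 0.1, which is as low as 3 against 3 libraries can give). Its log2 fold change of -0.64 had a standard error of 0.19 and an edgeR adjusted p of 0.0464. That call was lost with any of 5 libraries left out: the adjusted p was 0.0782, 0.0913 and 0.0705 without Control replicates 0, 1 and 2, and 0.161 and 0.141 without GOF replicates 0 and 1. Without GOF replicate 2 it was 0.0182.

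Snhg5, on chromosome 9 from 88521050 to 88522929 on the minus strand, is the host of the box C/D snoRNAs Snord50a and Snord50b. Control replicates 0, 1 and 2 had 46.6, 41.0 and 42.1 FPKM, and GOF replicates 0, 1 and 2 had 20.3, 22.4 and 32.4 FPKM. The controls lay close together, and all 3 GOF libraries were below them. The log2 fold change was -0.72 (standard error 0.19, edgeR adjusted p = 0.0324; two-sided exact permutation p on FPKM = 0.1). As for Gas5, the call did not survive the loss of most libraries: the adjusted p was 0.0596, 0.0665 and 0.0747 without Control replicates 0, 1 and 2, 0.111 and 0.101 without GOF replicates 0 and 1, and 0.0098 without GOF replicate 2.

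Zfas1 (chromosome 2, 167062934 to 167065862, plus strand), which holds Snord12 and a pair of unnamed snoRNA genes, came next in the order of p. Its controls had 156, 104 and 104 FPKM and its GOF cultures 64.5, 73.0 and 90.3 FPKM, in the order of replicates 0, 1 and 2. Control replicate 0 stood above the other two, and the groups did not overlap. Its log2 fold change of -0.61 (standard error 0.22) did not pass the test over all genes (edgeR adjusted p = 0.0961). Gas5, Snhg5 and Zfas1 were thus 3 of 8 members whose FPKM did not overlap between the groups, where 39.5% of all tested genes did not.

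The animals bear on these values. In 6 of 8 members, the cultures of animal 9852 had the highest CPM of their group on both sides, where 22.7% of all tested genes had that pattern. Within animal 9852, the CPM of the GOF culture was 0.679 times that of the control culture for Gas5, 0.693 times for Snhg5 and 0.617 times for Zfas1. Within animal 9845 the ratios were 0.616, 0.509 and 0.661. Across the 8 members, 6 had a lower CPM in the GOF culture of both animals and 0 had a higher one in both, where 38.2% and 36.8% of all tested genes did. Some of these differences were small: the ratio was 0.937 and 0.980 for Snhg20 in animals 9852 and 9845, and 0.939 for Snhg6 in animal 9845. The exceptions were Snhg3 and Snhg15, at 1.20 and 1.54 times the control in animal 9845. In animal 9852 Snhg3 was at 0.703 times, and Snhg15 was nearly equal at 0.998 times.

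With the animal as a replicate block in edgeR, the adjusted p of Gas5, Snhg5 and Zfas1 was 0.0201, 0.0256 and 0.0169, so that 3 of 8 members were lower past the test, where 9.91% of all genes were in the same fit. Only the 2 animals with a culture in each group inform that fit. It estimates nearly as many quantities as there are libraries, so its p-values rest mostly on the spread shared across genes. That these p-values are smaller is thus not stronger evidence. Over the alternatives set beside the test, the adjusted p ran from 0.0137 to 0.161 for Gas5, from 0.00569 to 0.111 for Snhg5 and from 0.0169 to 0.272 for Zfas1. When both libraries of animal 9852 were left out, an alternative chosen after seeing the data, all 3 genes passed (0.00383, 0.00454 and 0.0122), as did 14.4% of all genes in that direction.

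Snhg6, the host of Snord87 (chromosome 1, 9941959 to 9944118, minus strand), varied most among replicates. Its controls had 122, 75.5 and 37.6 FPKM and its GOF cultures 34.6, 32.6 and 96.5 FPKM, in the order of replicates 0, 1 and 2. The cultures of animal 9852 were the highest of each group and the groups overlapped widely. The log2 fold change was -0.51 (standard error 0.47, edgeR adjusted p = 0.474), and it shrank to -0.08 without Control replicate 0 and grew to -1.08 without GOF replicate 2, passing in neither case. With the animal as a block the standard error fell to 0.17 and the log2 fold change was -0.25 (adjusted p = 0.332).

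Snhg12 (chromosome 4, 132308623 to 132311024, plus strand) holds the box H/ACA genes Snora16a, Snora44 and Snora61 and the box C/D gene Snord99. It had 102, 57.7 and 64.7 FPKM in controls and 51.8, 45.1 and 79.2 FPKM in GOF cultures. The groups overlapped, and the log2 fold change was -0.35 (standard error 0.26, edgeR adjusted p = 0.388).

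Snhg15, the host of Snora9 (chromosome 11, 6525591 to 6528760, minus strand), had 29.2, 17.8 and 15.3 FPKM in controls and 22.9, 22.9 and 30.7 FPKM in GOF cultures. Its log2 fold change was the highest of the members, 0.23 (standard error 0.27), and did not pass (edgeR adjusted p = 0.583). The culture of animal 9852 was again the highest of each group.

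The pair with the lowest levels lay close to 0 change in this table. Snhg20 (chromosome 11, 117076008 to 117078955, plus strand), which contains a gene for a Cajal body RNA of the same family as snoRNAs, had 5.20 to 6.74 FPKM in controls and 4.87 to 6.07 FPKM in GOF cultures, and its log2 fold change was -0.12 (standard error 0.17, edgeR adjusted p = 0.669). Snhg3 (chromosome 4, 132348014 to 132353686, minus strand), the host of Snora73a and Snora73b, had 6.01 to 7.62 FPKM in controls and 5.82 to 9.22 FPKM in GOF cultures, with a log2 fold change of 0.05 (standard error 0.26, edgeR adjusted p = 0.920).

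**Figure D2:**
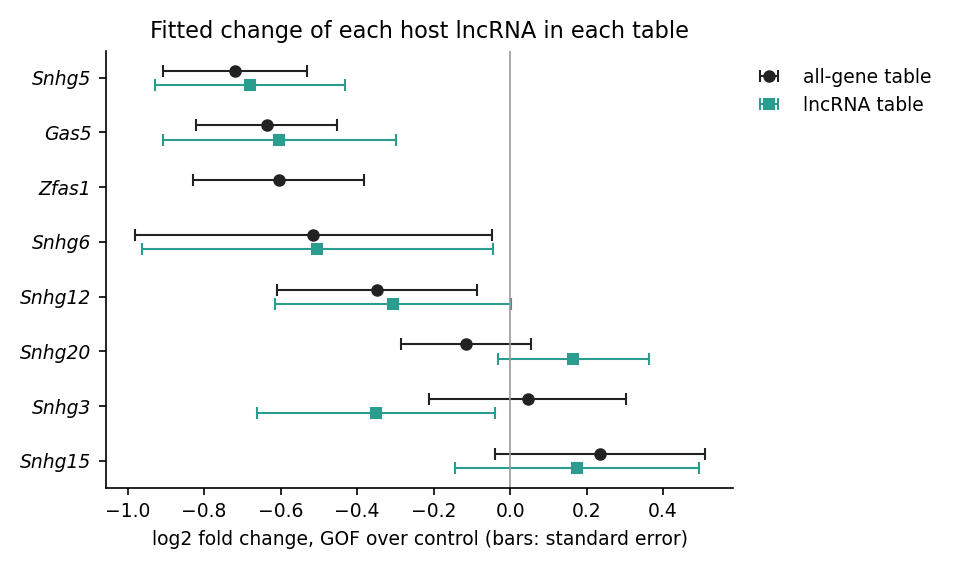
Fitted log2 fold change of GOF over control for each host, with its standard error as a horizontal bar, in the all-gene table (black circles) and the lncRNA table (green squares). Snhg5 has the lowest values, -0.72 and -0.68, and Snhg3 and Snhg20 are on opposite sides of 0 in the tables. Zfas1 has a value in the all-gene table only.

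In the lncRNA table, no host passed the test in either direction, where 5.33% of its 1389 tested genes were lower and 6.26% higher by edgeR. DESeq2 called 0 of 7 members as well (5.18% of all its genes were lower and 7.2% higher), and 1 of 7 had an unadjusted p under 0.05 in edgeR. Gas5 had a log2 fold change of -0.60 (standard error 0.30, edgeR adjusted p = 0.259) and Snhg5 one of -0.68 (standard error 0.25, edgeR adjusted p = 0.113). With the animal as a replicate block, 1 of 7 was lower past the test (6.98% of all its genes were), Snhg5, with an adjusted p of 0.0368, against up to 0.412 in its other alternatives. The sum of all fragments in this table differed more between libraries, from 1022957 to 1726901, and the single transcript Malat1 took 12.4% of them in Control replicate 0 and 25.8% to 41.3% in the others.

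The tables hold the same fragments for some hosts and not for others. Gas5, Snhg5 and Snhg6 had the same fragments in both tables within 0.1 fragments in each library: for Gas5, 13163, 12211 and 11823 in controls and 7228, 7221 and 10566 in GOF cultures. Snhg12, Snhg15 and Snhg20 had more fragments in the lncRNA table, by 28.1 to 68.8, 43.4 to 123 and 54.1 to 208 per library. These extra fragments equalled, within 0.1 fragments in all 6 libraries, those that the all-gene table lists for genes inside the host: Snora9 in Snhg15, Gm26083 in Snhg20, and Snora44 with Snora61 in Snhg12. For example, Snora9 had 118, 77.1 and 57.5 fragments in Control replicates 0, 1 and 2, and Snhg15 had 118, 77.1 and 57.5 more fragments in the lncRNA table in the same libraries. All 4 of these inner genes lie wholly within stretches that GENCODE M21 also annotates as exon of the host. So does Snora16a in Snhg12, which had 3 to 21 fragments per library that were not part of the equal sum. The deposited values therefore do not separate fragments of the small RNA from fragments of a host transcript that includes it.

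**Figure D3:**
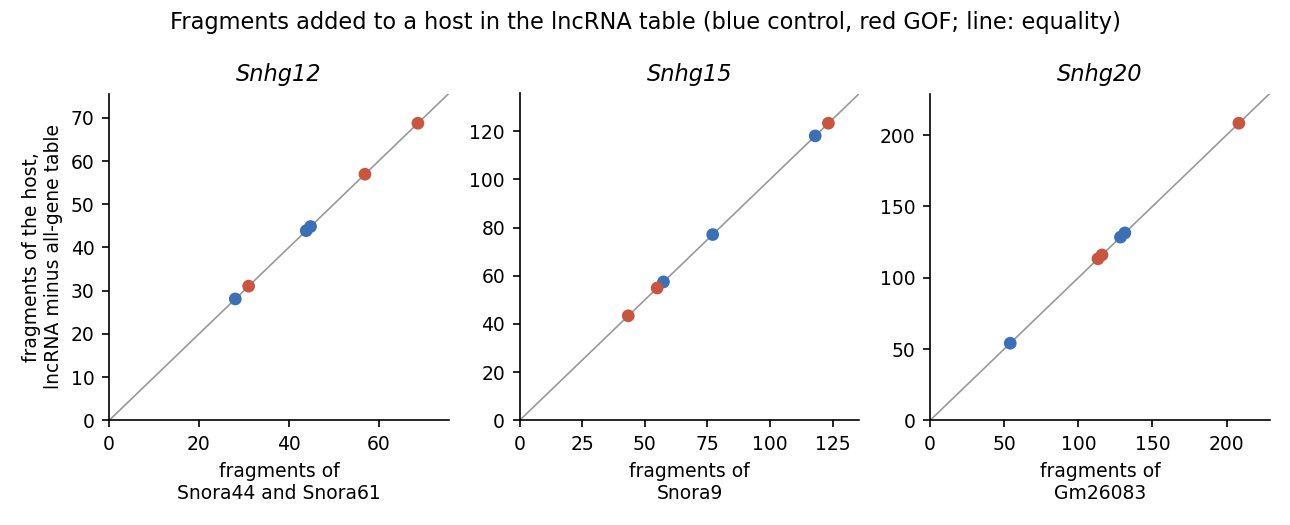
For 3 hosts, fragments in the lncRNA table minus those in the all-gene table (vertical axis) against fragments of the named inner genes in the all-gene table (horizontal axis). Each point is 1 of the 6 libraries, blue for control and red for GOF, and the line marks equality; every point lies on it within 0.1 fragments.

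Snhg20 shows what that does to a comparison. Gm26083, its inner gene, had 54.1, 128 and 131 fragments in Control replicates 0, 1 and 2 and 116, 113 and 208 in GOF replicates 0, 1 and 2, and the log2 fold change of Snhg20 went from -0.12 in the all-gene table to 0.16 in the lncRNA table, where they are counted with the host (edgeR adjusted p = 0.669 and 0.665). Snhg3 differed more. It had 64.1 to 93.1 fragments per library in the all-gene table and 961 to 1704 in the lncRNA table, a ratio of 10.7 to 22.1. No sum of its inner snoRNA genes gave that difference. Its exons share 135 bases with Rcc1, the coding gene on the same strand, which had 809 to 1000 fragments in the all-gene table, and Snora73a reaches 159 bases into them. The log2 fold change of Snhg3 was -0.35 in the lncRNA table (standard error 0.31, edgeR adjusted p = 0.554), and 0.19 there without Control replicate 0, so no direction is given for it.

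The FPKM of Gas5 and Snhg6 in the lncRNA table did not follow their fragments. Although the fragments of Gas5 were identical in the tables, its FPKM in the lncRNA table divided by its all-gene FPKM was 49.5, 34.9 and 12.8 in Control replicates 0, 1 and 2 and 35.3, 45.5 and 9.90 in GOF replicates 0, 1 and 2. For Snhg5, whose fragments were identical too, the ratio stayed between 32.2 and 43.9. For Snhg6, whose fragments were equal within the tolerance, it ran from 22.0 to 48.7. The 2 lowest ratios of Gas5, Snhg6, Snhg12 and Snhg15 were in Control replicate 2 and GOF replicate 2, which share neither an animal nor a group. In these libraries they were 29.9 and 33.2 for Snhg12 and 30.4 and 32.8 for Snhg15. The ratio of Snhg5 was lowest in Control replicate 2 as well. Group means of lncRNA-table FPKM are therefore not compared for the hosts, and that FPKM enters only the ranges over alternatives, through limma.

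The snoRNA genes inside the hosts were measured only where they are long. GENCODE M21 places 34 snoRNA or Cajal body RNA genes inside the 10 hosts on the same strand. Snord80 and Snora16a are each counted there under a pair of overlapping identifiers. Of the 34, 32 had a row in the all-gene table. In 23 of those rows, with lengths of 60 to 93 bases, all 6 libraries are listed at 0, and this includes every row inside Gas5, Snhg5, Snhg6 and Zfas1. The other 9 were 126 to 205 bases long and had fragments. Length parted all 1524 such genes of the table in the same way: 0 of 460 under 100 bases had a fragment, whereas 187 of 936 of at least 120 bases did, and the shortest with a fragment had 106 bases. A listing at 0 for a short snoRNA gene in these files is thus no statement about its level.

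**Figure D4:**
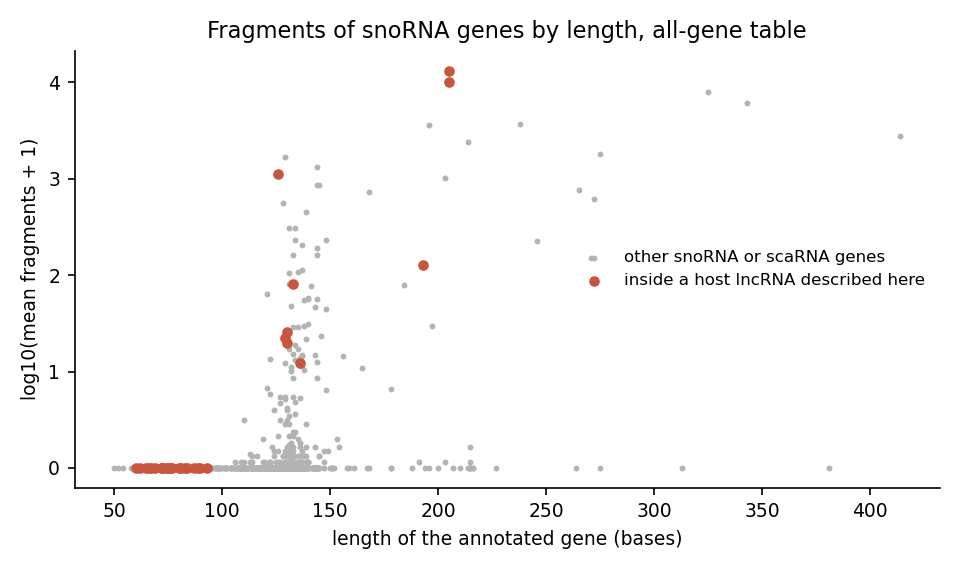
Annotated length in bases (horizontal axis) against log10 of the mean fragments per library plus 1 (vertical axis) for 1524 snoRNA and Cajal body RNA genes of the all-gene table. Red points lie inside the host lncRNAs described here and grey points elsewhere; no gene under 100 bases is above 0, and the highest red points are Snora73a and Snora73b.

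None of the 9 measured inner genes passed the test, where 10.2% of all tested genes were lower and 11.1% higher. An unadjusted p under 0.05 by edgeR was reached by 0 of them. With so few genes, this does not show that the inner genes were unchanged. Their median log2 fold change was -0.19. Genes inside Snhg1 and Snhg8, the hosts not found by identifier, were among them. Snord22, inside Snhg1 on chromosome 19 from 8725866 to 8725991, had 1346, 1116 and 1056 fragments in controls and 902, 959 and 1369 in GOF cultures (log2 fold change -0.19, standard error 0.22, edgeR adjusted p = 0.567). Snora24, inside Snhg8, had 10 to 25 fragments in controls and 14 to 22 in GOF cultures (log2 fold change -0.09, edgeR adjusted p = 0.911). Snora16a had the lowest value, -0.99 (standard error 0.55, edgeR adjusted p = 0.248), from 3 to 21 fragments per library.

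Snora73a and Snora73b, also called U17, take part in the cleavage that releases 18S ribosomal RNA rather than in modification. They had far more fragments than their host: Snora73b had 17870, 8092 and 7468 in Control replicates 0, 1 and 2 and 9097, 7032 and 10422 in GOF replicates 0, 1 and 2. Snora73a had 19789, 12187 and 11197 in controls and 11900, 10065 and 14329 in GOF cultures. In both genes the cultures of animal 9852 were the highest of their group, and the groups overlapped. The log2 fold change was -0.44 for Snora73b (standard error 0.39, edgeR adjusted p = 0.460) and -0.34 for Snora73a (standard error 0.29, edgeR adjusted p = 0.437). Their sequences, printed to show how alike they are, agree at 198 of 205 positions (96.6%) with no gap, so the division of fragments between them is uncertain. The reference sequence is GRCm38.p6, both are on the minus strand, and capitals mark the positions that differ.
Snora73a, chr4:132352775-132352979: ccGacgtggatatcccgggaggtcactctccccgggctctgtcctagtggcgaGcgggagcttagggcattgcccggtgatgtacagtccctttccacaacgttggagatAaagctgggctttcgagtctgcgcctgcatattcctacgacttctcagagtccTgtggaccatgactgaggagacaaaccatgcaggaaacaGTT
Snora73b, chr4:132352322-132352526: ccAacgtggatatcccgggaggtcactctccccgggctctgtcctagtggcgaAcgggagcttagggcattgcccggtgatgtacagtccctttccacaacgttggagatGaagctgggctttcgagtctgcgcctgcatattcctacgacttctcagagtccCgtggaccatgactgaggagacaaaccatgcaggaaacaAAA

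Genes that start within 1000 bases of a host on the other strand were compared with it, since several hosts lie head to head with a coding gene. Zbtb37, which encodes a zinc finger protein, starts 427 bases from Gas5 and overlaps it by 428 bases. It was lower in GOF cultures, at 4.30 ± 0.814 FPKM in controls and 3.33 ± 0.511 FPKM in GOF cultures (SD, n = 3), with a log2 fold change of -0.52 (standard error 0.15, edgeR adjusted p = 0.0414, 0.0115 to 0.275 over its alternatives), although the FPKM of the groups overlapped. Whether the counting used the strand is not given in the sources used here, and fragments of the overlap then cannot be told apart. Znfx1, an RNA helicase gene that overlaps Zfas1 by 82 bases, had a log2 fold change of 0.12 (edgeR adjusted p = 0.587), and Slc3a2, an amino acid transporter subunit gene beside Snhg1, one of -0.23 (edgeR adjusted p = 0.203).

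Among other snoRNA host lncRNAs, 5 of 12 listed genes were tested, 1 was higher and 0 were lower (11.1% and 10.2% of all tested genes were), and 2 had an unadjusted p under 0.05 by edgeR, with a median log2 fold change of -0.18. The one that rose was Snhg11, which GENCODE M21 annotates as protein-coding, from 0.187 ± 0.0767 to 0.538 ± 0.125 FPKM (SD, n = 3; log2 fold change 1.67, standard error 0.30, edgeR adjusted p = 0.00819), on 27 to 134 fragments per library. The other with an unadjusted p under 0.05, Snhg17, named after its values were seen, had 9.15 ± 1.11 FPKM in controls and 6.87 ± 0.644 FPKM in GOF cultures (SD, n = 3), with groups that did not overlap and a log2 fold change of -0.39 that did not pass (standard error 0.12, edgeR adjusted p = 0.0525, 0.0148 to 0.234 over its alternatives). Coding hosts outside the ribosomal proteins were tested in 15 of 15 cases with 0 higher and 0 lower (1 at an unadjusted p under 0.05 by edgeR) and a median of 0.06. The most abundant of them, Tpt1, encoding a growth-related tumour protein, and Rack1, encoding a scaffold protein of the small ribosomal subunit, had log2 fold changes of -0.54 and -0.51 (edgeR adjusted p = 0.187 and 0.234).

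Ribosomal protein genes that host snoRNAs had fitted values below 0 in 20 of 20 cases, against 51.5% of all genes, with a median of -0.40. Most of them varied together among the libraries, so these cases are not separate observations and their count shows no excess. None of these genes passed the test, where 10.2% of all tested genes were lower and 11.1% higher, and 2 had an unadjusted p under 0.05 by edgeR. Their summed level was 21644 to 32785 FPKM in controls and 17629 to 22985 FPKM in GOF cultures. Control replicate 0 was the highest control for all of these genes but Rpl30 and Rps2. The top of the control range thus came from that library. Rps12 had 3723, 2263 and 2135 FPKM in controls and 1558, 1503 and 2379 FPKM in GOF cultures, with a log2 fold change of -0.62 (edgeR adjusted p = 0.182). The FPKM of Gas5, Snhg6 and Snhg15 had the same order of libraries within each group as Rps12. Rpl13a had a log2 fold change of -0.51 (edgeR adjusted p = 0.330).

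The proteins that bind snoRNAs were tested as well. Of 8 tested genes for core proteins of the box C/D and H/ACA particles, 0 passed (0 at an unadjusted p under 0.05 by edgeR) and the median was 0.18. The most abundant, Snu13 and Nop58 of the C/D particle, had log2 fold changes of -0.07 and 0.17 (edgeR adjusted p = 0.805 and 0.478). Among 10 assembly factors, 1 was higher and 0 were lower, a share near the 11.1% of all genes that were higher. Znhit6, which is needed to assemble box C/D particles, had 3.85, 2.59 and 3.25 FPKM in Control replicates 0, 1 and 2 and 19.7, 10.7 and 9.19 FPKM in GOF replicates 0, 1 and 2. All GOF libraries were above all controls, and the log2 fold change was 2.02 (standard error 0.30, edgeR adjusted p = 0.00396).

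In the list of RNA polymerase I and ribosomal RNA processing genes, 3 of 18 were higher and 1 was lower, again beside 11.1% and 10.2% of all genes. Polr1e and Polr1a, subunits of RNA polymerase I, had log2 fold changes of 0.78 and 0.39 (edgeR adjusted p = 0.0200 and 0.0459), and Utp4, a factor for the small subunit precursor, one of 0.47 (edgeR adjusted p = 0.0243). Ubtf, which binds the ribosomal DNA for RNA polymerase I, fell by 0.35 on the log2 scale (edgeR adjusted p = 0.0384). With some alternatives each of these 4 calls was lost, the adjusted p reaching 0.0844 for Polr1e, 0.138 for Utp4, 0.191 for Polr1a and 0.217 for Ubtf.

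The all-gene table held 35980831 to 42834467 fragments per library, with the fewest in Control replicate 0, the library where 6 of 8 hosts were highest among controls together with GOF replicate 2 among GOF cultures. All 10 fibroblast markers were measured, with a summed level of 3073 to 3903 FPKM in controls and 2545 to 3118 FPKM in GOF cultures; Vim and Fap rose while Dcn and Col1a2 fell. Of 7 keratinocyte markers 6 stayed under 0.2 FPKM in every library, the sum being 0.407 to 0.527 and 0.507 to 0.562 FPKM. Single markers of other cells moved with the groups: Acta1 of the muscle list rose, so that the list summed to 23.3 to 27.6 FPKM in controls and 138 to 172 FPKM in GOF cultures with 3 of 5 markers, Myod1, Myog and Myh3, under 0.2 FPKM. Likewise Csf1r and Kdr rose and Tek and Fabp4 fell, in lists of macrophages (10.8 to 19.3 and 8.55 to 24.8 FPKM in sum), endothelium (4.32 to 4.47 and 2.68 to 6.54 FPKM) and adipocytes (7.18 to 8.95 and 1.80 to 3.17 FPKM). No marker of pericytes or smooth muscle, or of Schwann cells or melanocytes, passed the test in edgeR (1 and 0 at an unadjusted p under 0.05). Their part in the values of the hosts was not tested.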

How the data were processed

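Total RNA of 3 control and 3 GOF cultures was sequenced with a stranded, paired-end kit, and the authors aligned it to mm10 by TopHat, followed by Cuffdiff; versions and the annotation release are not given in the sources used here. The estimated counts were deposited by the authors as Cuffdiff's unscaled fragments per gene and library, once for all genes and once for lncRNAs. The FPKM values were deposited after the authors' Cuffdiff run scaled fragments for transcript length and between libraries. A further 6 columns of scaled values and lengths were not used, and 32 genes that Cuffdiff did not mark as estimated successfully, Malat1 among them, were left out of the all-gene table.

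Rounded fragments were tested within each table in R 4.3.3 with edgeR 4.0.16 (TMM, filterByExpr, quasi-likelihood test, Benjamini-Hochberg adjustment), checked on simulated data. The host genes and gene lists were chosen with earlier results of these data known. Named were all hosts, tested inner snoRNA genes, overlapping or nearby starts, and up to 4 called genes of each list with the smallest adjusted p, or else the 2 most abundant; marker lists are given by counts and sums. The list of nonsense-mediated decay factors is not reported here. Alternatives were DESeq2 1.42.0, limma 3.58.1 on log2(FPKM + 1) and log2(FPKM + 0.1), library totals, upper quartile, other filters, replicate blocks, each library left out and, for lncRNAs, all-gene totals or Malat1 removed. Gene positions are from GENCODE M21, whose GRCm38 assembly is mm10. Same-numbered libraries did not pair (correlation of their deviations from the group means -0.41, 0.05 and -0.44 over 15462 genes), whereas cultures of the same labelled animal did (0.41 and 0.46). P-values measure the spread between cultures, some of which share an animal.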

Additional observations from a re-analysis of the deposited data

How the results depend on the processing

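The count of 2 hosts past the test in the all-gene table stayed at 2 with DESeq2, library totals, upper quartile and both filters. It was 1 with limma on log2(FPKM + 1) and 1 with limma on log2(FPKM + 0.1), where Snhg5 alone passed, 0 with the replicate block by number and 3 with the replicate block by animal, and ranged from 0 to 2 with single libraries left out. In the lncRNA table the count of 0 became 1 with the replicate block by animal and 1 with voom and the animal as a correlated replicate block, an alternative chosen after seeing the data; under the latter the all-gene count was 3. The cause of these shifts was not tested.

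Hosts and inner snoRNA genes that did not pass the test changed sign under some alternatives. For Snhg3 in the all-gene table, the log2 fold change of 0.05 was -0.0070 with upper quartile, -0.12 with the replicate block by animal, -0.023 with the correlated replicate block and -0.093 to 0.20 with single libraries left out. With single libraries left out, it ranged from -0.38 to 0.0063 for Snord22, from -0.69 to 0.20 for Snora73b, from -0.53 to 0.067 for Snora73a, from -0.42 to 0.11 for Snora24, from -0.023 to 0.59 for Snora61 and from -0.85 to 0.15 for Snora9. In the lncRNA table the same ranges were -0.61 to 0.19 for Snhg3, -0.998 to 0.11 for Snhg6, -0.49 to 0.13 for Snhg12 and -0.089 to 0.69 for Snhg15; the value above 0 came without Control replicate 0 for the first 3 of these. Without both libraries of animal 9852 it was 0.092 for Snora73b, 0.0056 for Snora24, -0.053 for Snora44, -0.13 for Gm26083 and 0.16 for Snhg3 in the lncRNA table. Snora24 was further at 0.12 with limma on log2(FPKM + 1), 0.13 with limma on log2(FPKM + 0.1), 0.067 with the replicate block by animal and 0.055 with the correlated replicate block. Gas5, Snhg5 and Zfas1 kept a log2 fold change below 0 in every alternative run. The tested inner genes had as few as 3 fragments in a library, which limits what could be detected for them. The lncRNA table holds 1022957 to 1726901 fragments per library in all, but Gas5 and Snhg5 have the same fragments there as in the all-gene table.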
